A study of Mus musculus with 24 samples.

Results

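The miR-29 family was followed across the lungs of mice with and without an activated c-Raf kinase. Its 3 members, mmu-miR-29a, mmu-miR-29b and mmu-miR-29c, were found by name among the 611 mouse miRNAs of the array, and passenger strands were left out of the family. Total RNA from 24 animals, 1 per array, was measured on a 1-colour Agilent array. There were 4 groups of 6 arrays: transgenic males (M c-Raf), transgenic females (F c-Raf), wild type males (M WT) and wild type females (F WT). All animals were 4 to 6 months old. The transgenic mice were SP-C/c-raf animals, in which the promoter of surfactant protein C drives an N-terminally truncated, constitutively active c-Raf-1 in lung epithelium. The labels name the tissue of every sample, wild type included, as lung adenocarcinoma, while the protocol describes normal lung for wild type. They also state that cells were microdissected from frozen sections. The array carries no mRNA probes, so the transgene itself could not be checked.

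miRNAs of the miR-29 family repress messenger RNAs of the extracellular matrix, among them fibrillar collagens, elastin and fibrillin. They are known to be reduced by TGF-beta signalling in fibrosis of the lung and other organs. In lung cancer cells they are also known as repressors of the de novo DNA methyltransferases. A miRNA recognises its targets mainly through its seed, bases 2 to 8 from the 5′ end.

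The mature sequences are shown because the shared seed defines the family and because the members differ only outside it. All 3 members had an entry in the RefSeq table (build GRCm38.p6), where they stand under the names with the suffix -3p. The seed is in capitals.
miR-29a: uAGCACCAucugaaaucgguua
miR-29b: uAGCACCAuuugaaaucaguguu
miR-29c: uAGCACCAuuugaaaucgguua
Of 1679 mature mouse miRNA names in that table, these 3 alone carry this seed. miR-29a and miR-29c match at 21 of 22 positions and differ by C10U, counted from 1 at the 5′ end, with the base of miR-29a first. miR-29c and miR-29b differ by G18A, U21G and A22U, and miR-29b is 1 base longer. The family comes from 4 genes in 2 pairs. Mir29a (mature chr6:31062673-31062694) and Mir29b-1 (mature chr6:31063025-31063047) lie on the minus strand of chromosome 6, with 275 bases between their hairpins. Mir29b-2 (mature chr1:195037091-195037113) and Mir29c (mature chr1:195037600-195037621) lie on the plus strand of chromosome 1, with 426 bases between theirs. Both genes of miR-29b give the same mature sequence, so the array cannot tell them apart.

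miR-29a was the member that these lungs showed most clearly. It was flagged as detected on 24 of 24 arrays. miR-29c was detected on 5 arrays, namely M c-Raf replicates 1, 4 and 5, F c-Raf replicate 4 and F WT replicate 4, and on 0 of 6 M WT arrays. miR-29b was detected on 1 array, M c-Raf replicate 4. Thus 1 of 3 members was detected on the 6 arrays required for testing, as were 120 of the 611 mouse miRNAs.

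Detection of miR-29c went with how much the array as a whole showed. The 5 arrays with miR-29c had 124 to 179 mouse miRNAs detected, and the other 19 had 38 to 117. The brightness of an array, the 75th percentile of the spots of the 27 miRNAs detected everywhere, was 337.5 to 1212 intensity units on those 5 arrays and 34.9 to 529 on the others. Brightness by group had a median of 433 in M c-Raf, 176 in M WT, 193 in F c-Raf, with 265 in F WT, and the groups overlapped. The part of brightness in the detection of miR-29c was not tested.

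Levels are given as log2 of intensity over brightness, with a floor at -6.64. In M c-Raf, miR-29a ran from -1.76 through a median of -1.07 to -0.36. In M WT it ran from -3.79 through -1.33 to -1.04. In F c-Raf the lowest, median and highest values were -1.45, -1.35 and -1.04. In F WT they were -1.67, -1.44 and -0.88. The ranges of the 4 groups overlapped, and the low end of M WT was set by replicate 4, since its other 5 arrays lay between -1.88 and -1.04.

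**Figure D1:**
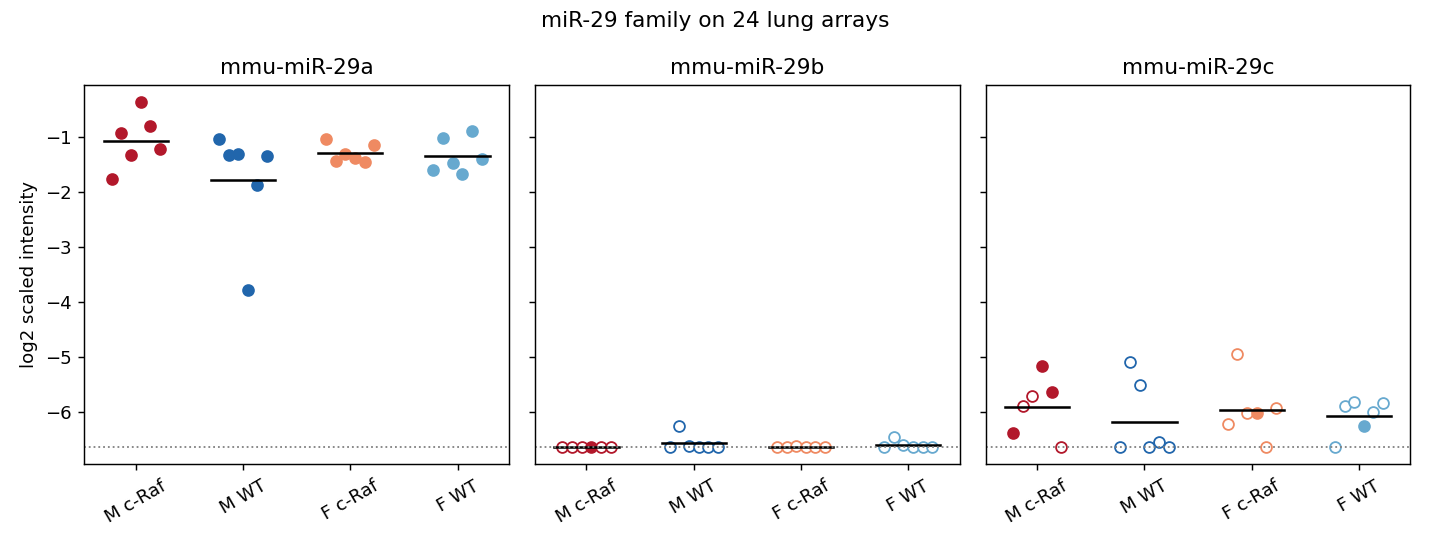
Scaled intensity (log2, vertical axis) of each family member on each array, by group; filled points were detected, open points were not, bars are group means and the dotted line is the floor. miR-29a lies well above the floor on all arrays, with M WT replicate 4 at -3.79, while miR-29b lies at or near the floor and miR-29c between -6.64 and -4.94.

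By mean, the order of miR-29a was M c-Raf (-1.06 ± 0.48, SD, n = 6), F c-Raf (-1.30 ± 0.17), F WT (-1.34 ± 0.32) and M WT (-1.78 ± 1.02). Neighbours in this order differed by 0.44 or less, under the larger SD of each pair.

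miR-29c stayed near the floor in all groups. It ran from -6.64 to -5.16 in M c-Raf with a median of -5.81, while M WT spanned -6.64 to -5.09 with a median of -6.60. In F c-Raf it ran from -6.64 through -6.03 to -4.94, and in F WT from -6.64 through -5.95 to -5.82. On 6 of 24 arrays it lay at the floor itself, 3 of them M WT. No fold is given for miR-29c in males, because the M c-Raf mean of -5.91 was below the lowest signal well above background in M WT, which averaged -3.73.

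miR-29b lay at the floor on 19 arrays, including all 6 of M c-Raf. Its highest value was -6.26, in M WT replicate 2, where it was not detected. On M c-Raf replicate 4, the array that did detect it, the median intensity over its spots was 3.19 units and the floor stood for 12.1 units.

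The passenger strands, which come from the other arm of the same hairpins, were seen as rarely. miR-29a* was detected on 0 arrays. miR-29b* was detected on 3 arrays (M c-Raf replicates 4 and 5 and F WT replicate 4) and miR-29c* on 4 (the same arrays and M c-Raf replicate 1). These arrays were all among the 5 that detected miR-29c.

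Whether miR-29a moved with the transgene was asked first in males. M c-Raf exceeded M WT by 0.72 on the log2 scale (SE 0.33, 95% interval 0.02 to 1.41), a 1.64-fold difference that did not pass the test (limma adjusted p = 0.203, unadjusted p = 0.0440). This SE rests on 1 spread shared by all 4 groups, whose SDs ran from 0.17 in F c-Raf to 1.02 in M WT. With only the 2 male groups in the fit, the unadjusted limma p was 0.128 (adjusted p = 0.367). Of the members only miR-29a could be tested, and it was not called, against 2.5% of all tested miRNAs called (3 of 120). The median difference of those 120 was 0.13. Without M WT replicate 4 the difference was 0.31 (SE 0.21, limma adjusted p = 0.398), or 1.24-fold. On that array miR-29a lay under the lowest signal well above background. With it set to that signal, the difference was 0.55. On the slides, each of which held 1 array of every group, M c-Raf was higher on 4 of 6, from -0.72 on slide 1 to 3.42 on slide 4. Within scans 1 to 4 the difference was 3.42, 0.60, -0.72 and 0.19, where scan 1 is slide 4 alone and scan 3 slide 1 alone. With the slide as a block the limma adjusted p was 0.167, and with the scan as a block it was 0.146. Every group had its own fixed place on the slides, and this place and the group cannot be told apart. In tissue RNA, fewer cells of a type and less of a miRNA per cell cannot be told apart either.

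In females miR-29a was nearly level between the genotypes. F c-Raf minus F WT was 0.05 (SE 0.33, 95% interval -0.65 to 0.74, limma adjusted p = 0.976), a sign that turned under quantile normalization, without scaling, with the total signal of the files and without F c-Raf replicate 1, F WT replicate 1 or F WT replicate 4. Here too miR-29a, the only member tested, was not called, against 5% of tested miRNAs called (6 of 120). F c-Raf was higher on 4 of 6 slides, with differences from -0.56 on slide 5 to 0.55 on slide 1. Within scans 1 to 4 it was 0.28, -0.15, 0.55 and -0.13. Without F WT replicate 5, the highest of its group, the difference was 0.14 (limma adjusted p = 0.935). The shared spread widens the female interval, which was -0.36 to 0.45 without M WT replicate 4.

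**Figure D2:**
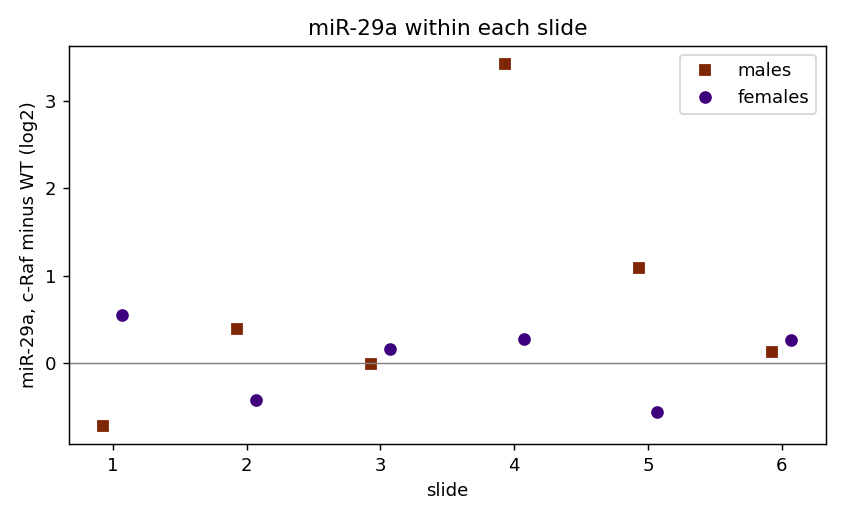
Difference of miR-29a between the c-Raf and the WT array of the same sex on each of the 6 slides (log2, vertical axis); squares are males and circles females. The male value of 3.42 on slide 4, which holds M WT replicate 4, lies far above all others, and both sexes have slides on either side of 0.

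Over both sexes the difference was 0.38 (SE 0.24, 95% interval -0.11 to 0.87, limma adjusted p = 0.306). The only member tested, miR-29a, was not called, against 18.3% of tested miRNAs called (22 of 120). It was 0.18 without M WT replicate 4 (limma adjusted p = 0.446). The c-Raf effect in males exceeded that in females by 0.67 (SE 0.47, limma adjusted p = 0.872), and by 0.27 without that array. This comparison called 0% of miRNAs (0 of 120 by limma, 5 at an unadjusted p under 0.05).

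Between the sexes miR-29a did not pass the test in either genotype. M WT minus F WT was -0.44 (SE 0.33, limma adjusted p = 0.608) and -0.04 without M WT replicate 4, and 0% of miRNAs were called (0 of 120, 11 at an unadjusted p under 0.05). M c-Raf minus F c-Raf was 0.23 (SE 0.33, limma adjusted p = 0.992), with 2.5% called (3 of 120). With normexp background correction both signs turned, as did that of the difference of effects.

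**Figure D3:**
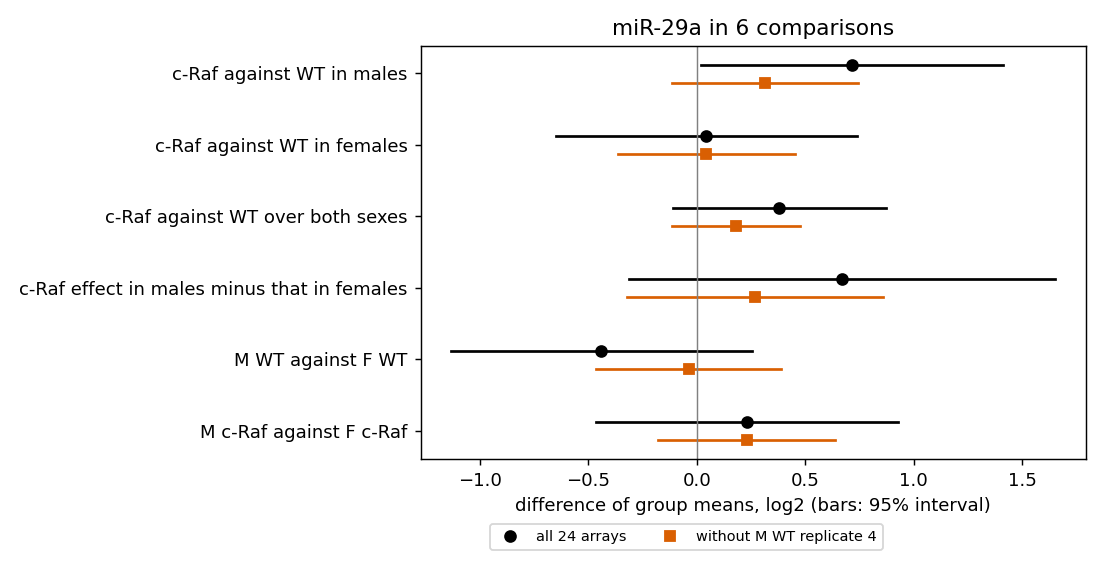
Differences of miR-29a in the 6 comparisons (log2, horizontal axis) with 95% intervals from limma, over all arrays (circles) and without M WT replicate 4 (squares). The male interval starts at 0.02 with all arrays and includes 0 without that array, and all other intervals include 0.

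Each member is read by 2 different probes of 10 spots each. For miR-29a the brighter probe was 9.47 times as intense as the dimmer one in the median over 23 arrays (6.77 to 11.4), and the dimmer probe read -0.25 units on M WT replicate 4. The median over 20 spots therefore falls between the probes. Only 10 to 12 of these spots were well above background on M c-Raf replicate 6 and F c-Raf replicates 2 and 5. The same held for M WT replicates 2 and 5 and F WT replicates 2, 3 and 6. In males the brighter probe gave a difference of 0.70 and the dimmer probe 1.00, which became 0.27 and 0.48 without M WT replicate 4. In females they gave 0.10 and 0.09. Both probes read low on M WT replicate 4. The brighter one read 7.48 units, where the other M WT arrays read 91.2 to 232. Although flagged as detected there, miR-29a had 1 of 20 spots well above background. Its median of 3.82 units, like both probes, lay under the array's lowest signal well above background, 7.74 units. The brightness of that array, 52.8, was the lowest of M WT. After scaling for brightness miR-29a was still 2.41 lower there than the mean of the other M WT arrays. The median of all 120 tested miRNAs was lower by 0.20, and miR-29a had the 5th lowest value among them.

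miR-29c was too dim for the test, so its raw signal is set beside that of miR-29a as a description. On the 5 arrays that detected it, the brighter probe of miR-29c read 1.48% to 2.08% of the intensity of the brighter probe of miR-29a. Different probes bind with different strength, so this is no ratio of amounts. On the other 19 arrays the median was 1.97%, with values from -11.8% to 3.32%.

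**Figure D4:**
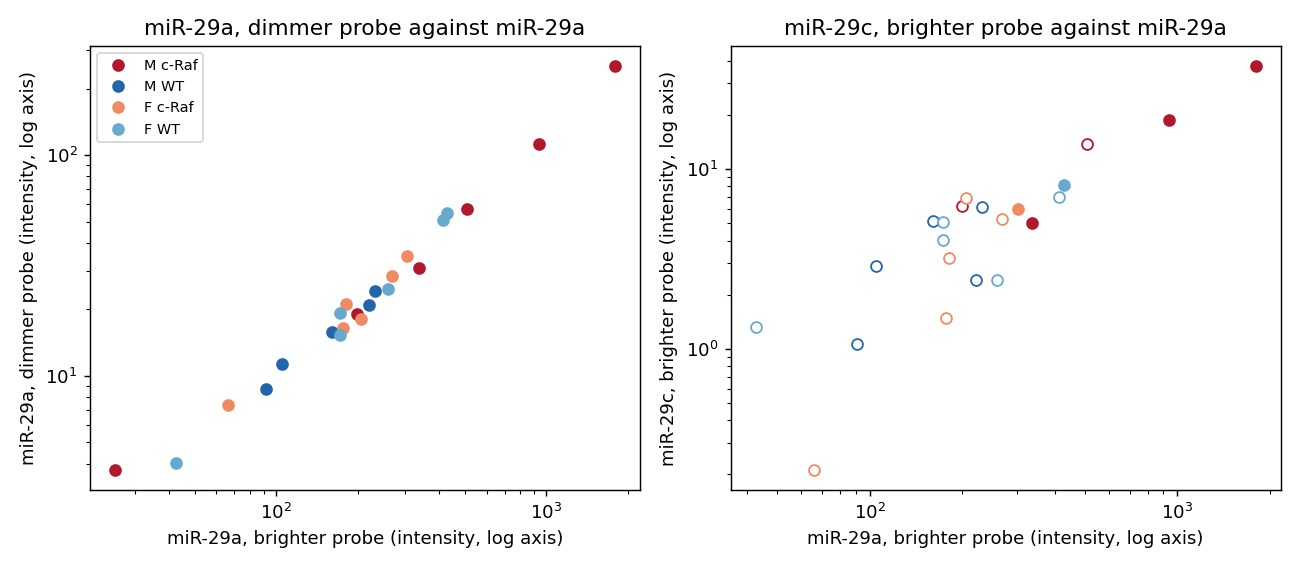
Intensity of the dimmer miR-29a probe (left) and of the brighter miR-29c probe (right) against the brighter miR-29a probe, 1 point per array, log axes; in the right panel filled points are the 5 arrays that detected miR-29c. Values at or below 0 are not drawn (1 array left, 2 right). The ratio of the 2 miR-29a probes runs from 6.77 to 11.4 over the range from 25.3 to 1794 units, while the miR-29c points scatter more at low intensity.

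Whether the members changed unequally was tested on differences between members within an array. A member at the floor makes such a difference depend on the scaling, since the floor is set after it, and all 3 female differences turned sign with the total signal of the files. The 3 pairs in 2 sexes made 6 exact two-sided permutation tests over all divisions of the 12 arrays of a sex. miR-29a minus miR-29b was 5.58 ± 0.48 (SD, n = 6) in M c-Raf against 4.80 ± 1.00 in M WT, a change of 0.78 (exact permutation p = 0.0758, adjusted p = 0.455). For miR-29a minus miR-29c the change was 0.44 in males (exact permutation p = 0.359, adjusted p = 0.719) and -0.06 in females (exact permutation p = 0.866, adjusted p = 0.866). The other 3 changes ran from -0.34 to 0.08, with adjusted p from 0.719 to 0.805 by exact permutation. None of the 6 passed. With miR-29b at the floor on 19 arrays, the change of miR-29a minus miR-29b is nearly that of miR-29a alone. The tests of miR-29b minus miR-29c could hardly show an unequal change, since miR-29c was also detected on only 5 arrays.

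Across the 24 arrays, with group means removed, 6 relations among members and brightness were computed. miR-29a with miR-29c had a Pearson r of 0.37 (permutation p = 0.0779, adjusted p = 0.118) and a Spearman rho of 0.46 (permutation p = 0.0232, adjusted p = 0.139). Without the 2 arrays farthest from the median of miR-29a, r was 0.48, and within scans 2 and 4 it was 0.45 and 0.32. miR-29b with miR-29c had an r of 0.50 (permutation p = 0.0117, adjusted p = 0.0705) and a rho of 0.38 (permutation p = 0.0684, adjusted p = 0.201). That r fell to 0.25 without the 2 farthest arrays and was 0.02 and 0.41 within the scans. Brightness with miR-29a had an r of 0.37 (permutation p = 0.0790, adjusted p = 0.118) and a rho of 0.24 (permutation p = 0.253, adjusted p = 0.379). It was 0.48 without the 2 farthest arrays, and 0.63 and -0.21 within scans 2 and 4. Brightness with miR-29c had an r of 0.38 (permutation p = 0.0639, adjusted p = 0.118) and a rho of 0.34 (permutation p = 0.1004, adjusted p = 0.201), with 0.36 without the 2 farthest arrays and 0.52 and 0.03 within the scans. The 2 other relations of miR-29b, with miR-29a and with brightness, had an r of 0.23 and -0.01 (permutation p = 0.195 and 0.943, adjusted p = 0.234 and 0.943), and a rho of 0.03 and 0.05 (permutation p = 0.880 and 0.833, adjusted p = 0.880 for both). Without the 2 farthest arrays r was 0.25 and -0.08, and within scans 2 and 4 it was -0.27 and 0.50, and -0.23 and -0.29. No relation passed after adjustment over the 6. Those of miR-29b rest on 5 arrays off the floor, none of which detected it. In those of miR-29c, it was off the floor on 18 arrays but detected on only 5. The 3 relations without miR-29b depended on the scaling: when all non-control spots set the percentile, r was 0.89 for miR-29a with miR-29c, 0.83 for brightness with miR-29a and 0.83 for brightness with miR-29c (adjusted permutation p = 2e-05 each). Of the 611 mouse miRNAs 407 were detected on no array, so most spots behind that percentile lay near background. The median male difference of all tested miRNAs was then 1.01, beside 1.19 without scaling and 0.13 with the processing used here. Values that keep much of the brightness vary with it and with each other, so these r are no test of a relation.

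Among 118 other tested miRNAs, those most like miR-29a over the 24 arrays were miR-26a (r = 0.82), let-7i (0.81) and miR-27a (0.77). Without M WT replicate 4 these fell to 0.56, 0.49 and 0.37. Those most like miR-29c were miR-20a (r = 0.68), a member of the miR-17-92 cluster, miR-16 (0.65) and miR-26b (0.63), which were detected on 12 to 14 arrays. However, miR-29c itself was detected on only 5 of the 24 arrays. Its highest value, -4.94 in F c-Raf replicate 2, was on an array that did not detect it. For miR-29b no likeness is given, since it lay at the floor on 19 arrays and was detected on none of the other 5. All points share the brightness of their array.

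Calls among other miRNAs tied to matrix and fibrosis were counted next. Of a list of 16, 12 were tested. In males 1 of the 12 was called, against 3 of all 120 tested: miR-214, which comes from the mesenchymal miR-199a-214 transcript, fell by 1.03 (limma adjusted p = 0.00297). That call was lost in 5 of 20 other settings. Its sign turned in 1 of them, without scaling between arrays, where all tested miRNAs had a median of 1.19. In females 2 of the 12 were called, against 6 of 120. miR-21, which rises in many tumours and in fibrosis, was higher by 2.31 (limma adjusted p = 0.00157), a call lost in 5 of 20 other settings, and miR-214 fell by 0.69 (limma adjusted p = 0.0338), a call lost without any 1 of 8 arrays and in 13 of 20 other settings, with normexp turning its sign. Over both sexes 4 of the 12 were called, against 22 of 120. miR-21 rose by 1.79, miR-214 fell by 0.86, and miR-200a and miR-200b, epithelial miRNAs that hold back ZEB repressors, rose by 0.73 and 0.75 (limma adjusted p = 0.000318, 0.000153, 0.0217 and 0.0482). Other settings lost the call of miR-21 in 2 of 18 and that of miR-214 in 4 of 18. miR-200b lost its call without any 1 of 16 arrays and in 8 of 18 other settings. miR-200a lost it in 8 of 17 other settings and was at -0.03 with normexp. Its call has a further limit, since wild type lungs alone would have left miR-200a short of the filter. The flag was set in 0 M WT and 2 F WT lungs, beside 4 M c-Raf and 5 F c-Raf lungs. Such a filter favours a call upwards. The list's median difference was 0.33 in males, 0.14 in females and 0.22 over both, beside 0.13, 0.03 and 0.09 for all tested miRNAs. Of the 12, 1 was called in M c-Raf against F c-Raf, namely miR-21 (-1.88, limma adjusted p = 0.0177), a call lost without F c-Raf replicate 2 and in 7 of 19 other settings. For the difference of effects and for M WT against F WT the list had 0 calls by limma, with 0 and 2 at an unadjusted p under 0.05.

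Some markers of lung cell types were called too, and their part in the miR-29a values was not tested. The endothelial miR-126-3p (1 of 2 listed miRNAs tested; miR-126-5p was detected on no array) ran from -2.41 to -1.15 in M c-Raf, against -4.07 to -1.67 in M WT, with M WT replicate 4 the lowest. Its F c-Raf values lay between -1.86 and -0.97 and its F WT values between -2.23 and -1.71. It was called over both sexes, at 0.75 (limma adjusted p = 0.0217), a call lost in 8 of 18 other settings. The summed level of 4 tested of 5 epithelial miRNAs ran from -0.60 to 0.97 in M c-Raf and from -0.73 to 0.46 in M WT. It ran from 0.16 to 0.89 in F c-Raf and from -0.29 to 0.68 in F WT. Both miR-200b and miR-200c were detected on all 6 arrays of each group. By contrast, miR-200a was detected on 4 M c-Raf, 0 M WT, 5 F c-Raf and 2 F WT arrays. For miR-429 these numbers were 4, 1, 5 and 3. None of these 4 was called in males or in females. Over both sexes 3 were called, all upwards, against 22 of all 120 (15 upwards): miR-200a, miR-200b and miR-429 (0.73, limma adjusted p = 0.0180, lost in 9 of 18 other settings). Of these, miR-200a and miR-429 reached the filter only with their c-Raf arrays, which favours an upward call. The 2 tested of 5 mesenchymal miRNAs had differences of opposite sign. miR-214 had a mean of -3.26 in M c-Raf against -2.23 in M WT, while miR-199a-3p was at -3.11 against -3.41 and was not called (limma adjusted p = 0.283). Their sum ran from -2.28 to -1.97 in M c-Raf against -1.94 to -1.14 in M WT, and from -2.22 to -2.02 in F c-Raf against -2.21 to -1.56 in F WT. M WT replicate 4, with the lowest miR-29a, had the highest mesenchymal sum. Of 3 erythroid miRNAs 2 were tested, with sums of -3.44 to -2.52 in M c-Raf, -3.32 to -0.97 in M WT, -3.44 to -2.42 in F c-Raf, with -3.16 to -2.10 in F WT, and miR-144 was detected on no array. miR-486 fell by 1.41 in males (limma adjusted p = 0.0161), a call lost without M WT replicate 4 and in 9 of 20 other settings, and by 1.10 over both sexes (limma adjusted p = 0.00213), lost in 4 of 18. miR-451 had a mean of -4.38 in M c-Raf against -5.02 in M WT and was not called (limma adjusted p = 0.305). Of 5 leukocyte miRNAs 3 were tested and 0 called by limma in any of the 6 comparisons, with 1 at an unadjusted p under 0.05 in males and 1 over both sexes. Their sums ran from -4.20 to -2.46 in M c-Raf, -4.36 to -2.91 in M WT, -4.24 to -3.40 in F c-Raf, with -4.38 to -3.83 in F WT, and both arms of miR-142, the defining leukocyte miRNA, were detected on no array.

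The size of the male difference of miR-29a depended on the scaling, while its sign did not. It was 1.89 without scaling between arrays, where the median of all tested miRNAs was 1.19, and 1.41 when all non-control spots set the percentile, where that median was 1.01. With normexp it was 0.14 and the median -0.79. Relative to the median, miR-29a was thus higher by 0.71, 0.41 and 0.93, beside 0.59 with the processing used here. All these values include M WT replicate 4. Without that array, miR-29a was higher than the median by 0.25 with the processing used here. The methods' test on linear values gave 0.57 (unadjusted p = 0.105, or 0.430 after Benjamini-Hochberg adjustment).

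**Figure D5:**
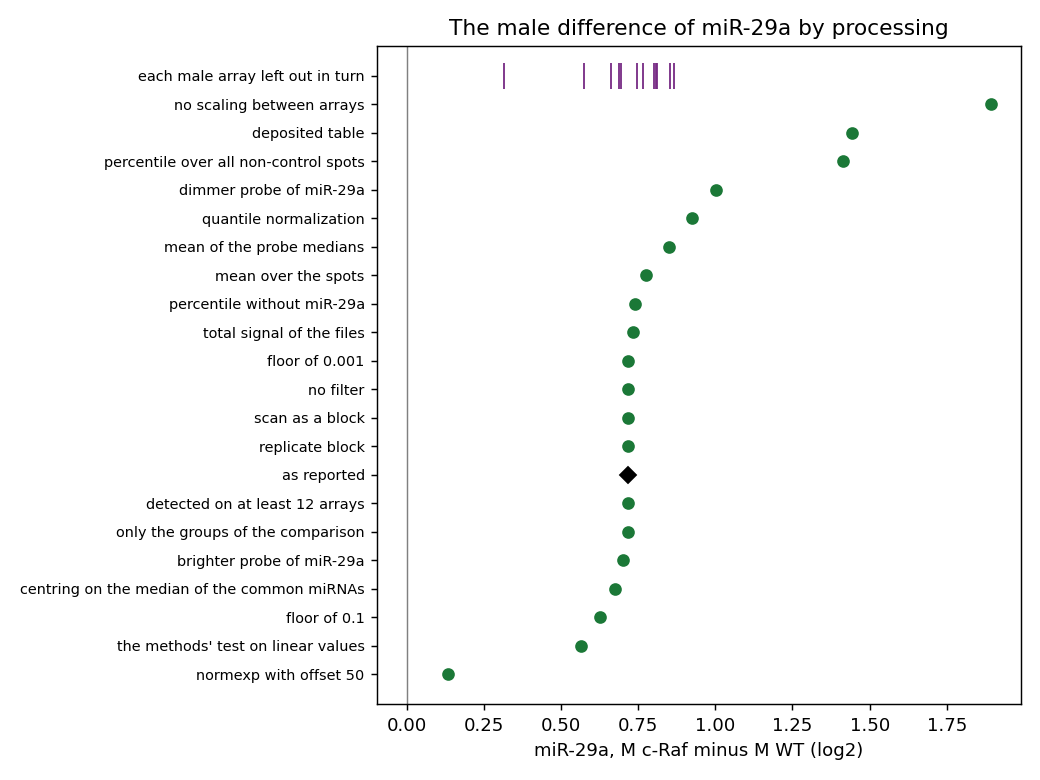
Difference of miR-29a between M c-Raf and M WT (log2, horizontal axis) under each processing alternative; the diamond is the value as reported and the ticks are values with 1 male array left out. Values run from 0.14 with normexp to 1.89 without scaling, and the lowest tick, 0.31, is the one without M WT replicate 4.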

How the data were processed

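The authors hybridised 100 ng of Cy3-labelled total RNA per array; per the file headers, Feature Extraction 10.7.3.1 read the spots and the design is on mm9. The deposited scanner files hold background-subtracted intensity values, not scaled between arrays. A processed table that the authors deposited, also of intensity, served as an alternative, in which each value was the spot median times 1000 over the array's 75th percentile of all spots (100% within 1%).

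Each spot was divided by a 75th percentile of its array, taken over spots of those 27 mouse miRNAs that every array detected. Values under 0.01 were set to 0.01 (log2 -6.64), the median over 20 spots was taken, then log2. The floor understates changes of dim miRNAs, and values at it have no order. No member spot was saturated (0 of 1440). miRNAs detected on at least 6 arrays (120 of 611) entered limma 3.58.1 in R 4.3.3 (lmFit, eBayes, 1 mean per group, all 24 arrays), with Benjamini-Hochberg adjustment over the 120 and calls at an adjusted p under 0.05. The script was tested on simulated data. Permutation p values of correlations used 100000 resamples. The number of arrays, 6 per group, limits the precision. With 1 array per animal, p values measure a spread in which animal and array cannot be told apart.

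The files hold no mean signal, so normexp (offset 50) started from the median signal. Alternatives were other scalings, backgrounds, floors (0.1 and 0.001), spot summaries, filters, tests, blocks for slide and scan, and each array left out. Named are the members, their passenger strands, the 3 miRNAs most like each member, and called miRNAs of a matrix and fibrosis list; called cell type markers were named after their values were seen. The members and lists were chosen with earlier results of these data known.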

Additional observations from a re-analysis of the deposited data

Results flagged for a closer look

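Arrays far from the rest of their group were looked for with Dixon's 95% limit for 6 values, which compares the gap beside the highest or lowest value with the whole range. Chance singles out about 5% of groups, and 4 of the 12 groups of the family were singled out. miR-29a in M WT replicate 4 was at -3.79, where the other 5 arrays lay from -1.88 to -1.04. The other 3 were miR-29b in M WT replicate 2 (-6.26), F c-Raf replicate 3 (-6.63) and F WT replicate 2 (-6.46). In these 3 groups 4 or 5 of 6 arrays lay at the floor, so the 5% does not apply to them, and miR-29b was not detected on any of these 3 arrays.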

How the results depend on the processing

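miR-29a was refitted 210 times over 6 comparisons and was called 0 times by limma or the methods' test; 18 of the refits had an unadjusted p under 0.05. Its sign held in 201 of them. In females it was -0.016 with quantile normalization, -0.18 without scaling and -0.094 with the total signal. With normexp it was -0.15 for the difference of effects, 0.069 for M WT against F WT and -0.078 for M c-Raf against F c-Raf. With 1 array left out it ran from 0.31 to 0.86 in males, -0.020 to 0.14 in females, 0.18 to 0.45 over both, 0.27 to 0.82 for the difference of effects, -0.59 to -0.04 in WT and 0.09 to 0.37 in c-Raf. Settings chosen after seeing the data (percentile without miR-29a, probe means and single probes) gave the same signs.

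The replicate number was the slide. With group means removed, same-numbered arrays correlated over 0.1 in 23 of 36 pairs (median 0.36, range -0.42 to 0.72). On slides 2 and 3 every pair varied together (0.38 to 0.70). On slides 1, 4, 5 and 6 the pairs ran from -0.42 to 0.72, with M c-Raf and M WT at -0.35 to 0.09. The cause was not tested. With the replicate block miR-29a was at 0.72 in males (adjusted p = 0.167) and 0.05 in females, and no call of it changed.

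For member pairs, a floor of 0.1 gave 0 for miR-29b minus miR-29c in both sexes and 0.045 for miR-29a minus miR-29c in females. In females the total signal gave -0.094 (miR-29a minus miR-29b), 0.00337 (miR-29a minus miR-29c) and 0.10 (miR-29b minus miR-29c), a floor of 0.001 gave -0.0029 and normexp -0.41 for miR-29a minus miR-29b. With arrays left out, miR-29a minus miR-29c ran from -0.17 to 0.17 and miR-29b minus miR-29c from -0.28 to 0.062 in females.

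When all non-control spots set the percentile, r was 0.89 for miR-29a with miR-29c, 0.83 for brightness with miR-29a and 0.83 with miR-29c (adjusted permutation p = 2e-05 each), and 0.37 for brightness with miR-29b. That percentile leaves much of the brightness in the values, so these r are no test of a relation. miR-214 was at 0.15 in males without scaling and 0.30 in females with normexp, and miR-200a over both sexes at -0.025 with normexp. Numbers of miRNAs called ran from 0 to 7 in males (3 as reported), 0 to 10 in females (6), 0 to 32 over both (22), 0 to 6 between the c-Raf groups (3) and 0 to 2 for the difference of effects (0 by limma as reported, 5 at an unadjusted p under 0.05). Signal over background limits miR-29b and miR-29c: no fold could be given for either.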
